A study of Mus musculus with 9 samples.

Results

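The beta subunits of the sodium-potassium pump were followed in enamel organs of mouse pups: Atp1b1, Atp1b2 and Atp1b3, which are 3 of the 54532 genes in the count table. They were taken by gene symbol, and Atp1b1 was picked from the measured values because it was higher after early life adversity, so its difference between the groups is given below as a description without a test. Atp1b2 and Atp1b3 complete the family and were not selected on their own values. All 3 genes had enough counts to enter the fit across 15909 genes.

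RNA was sequenced from first-molar enamel organs of 5 male pups raised under early life adversity (ELA), with scarce bedding and nesting material from postnatal day 2 to day 12, and of 4 male control pups. All 9 pups were collected at postnatal day 12, were C57BL/6, and carried Crh-IRES-Cre with the Ai14 tdTomato reporter, so Cre and reporter were shared by both groups. Each library came from 1 mouse. Bedding and nesting material were set by cage, for a dam with her litter, so pups of 1 litter shared their exposure. The labels do not give the litter of each pup. ELA mice have titles beginning t-203 (3 mice) or t-205 (2 mice), control mice c-202 or c-204 (2 mice each), and the meaning of the numbers is not stated in the labels.

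The sodium-potassium pump is an ATPase of the cell membrane that exports sodium and imports potassium at the cost of ATP. A catalytic subunit moves the ions, and a glycosylated beta subunit folds with it, brings it to the cell surface and modifies its affinity for potassium and sodium. Small membrane proteins of the FXYD family attach to the assembled pump and tune it, while sodium-coupled carriers and channels draw on the gradient it builds. The enamel organ is the epithelium that forms enamel, and its ameloblasts first secrete enamel matrix and then carry ions into it.

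Libraries held 18056774 to 32110160 counts in ELA and 18683431 to 20831736 in control mice, and Atp1b2, the scarcest member, had 60 to 822 counts per mouse. Enamel genes were abundant in every library. The summed level of secretory ameloblast markers (Amelx, Ambn, Enam, Mmp20) was 50292 to 64506 CPM (counts scaled to library size) in control and 71274 to 129847 CPM in ELA mice, without overlap. Maturation ameloblast markers summed to 28727 to 40316 CPM in control and 23151 to 41159 CPM in ELA mice. The ELA library titled t-203-1-4 stood apart, with 8 neuron markers at 597.5 CPM in sum against at most 104.8 CPM in any other mouse, and 8 glia markers at 335.0 CPM against at most 98.2 CPM. In bulk RNA, fewer cells of a type and less RNA per cell cannot be told apart.

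The genes lie on 3 chromosomes, all on the minus strand of GRCm38. Atp1b1 (ENSMUSG00000026576) spans chr1:164437109-164458355, with 4 annotated transcripts of which 2 are protein-coding and up to 6 exons. Atp1b2 (ENSMUSG00000041329) spans chr11:69599736-69605942, with 5 transcripts, 2 of them protein-coding, and up to 7 exons. Atp1b3 (ENSMUSG00000032412) spans chr9:96332655-96364442, with 3 transcripts, 1 of them protein-coding, and up to 7 exons. The 3′ end of Atp1b1 shares 575 exon bases, 18.7% of its 3081, with exons of Nme7 on the plus strand. How reads were assigned by strand is not given in the sources used here, so reads in these bases cannot be told apart. Nme7 itself was at 9.45 to 14.9 CPM in ELA mice and 8.10 to 14.7 CPM in controls, and its groups overlapped. Atp1b2 and Atp1b3 overlap no other annotated gene.

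The stretch of 250 bases before the start is shown for Atp1b1 and for the upstream of the 2 annotated starts of Atp1b3. These genes made up nearly all beta subunit RNA and were unequal in how they differed between the groups. The promoter sequences used held no window for Atp1b2. The sequences are from RefSeq (GRCm38.p6), minus strand, 5′ to 3′, at chr1:164458356-164458605 for Atp1b1 and chr9:96364432-96364681 for Atp1b3. Capitals mark the GC box (GGGCGG) and the CCAAT box (CCAAT), each searched on both strands.
Atp1b1: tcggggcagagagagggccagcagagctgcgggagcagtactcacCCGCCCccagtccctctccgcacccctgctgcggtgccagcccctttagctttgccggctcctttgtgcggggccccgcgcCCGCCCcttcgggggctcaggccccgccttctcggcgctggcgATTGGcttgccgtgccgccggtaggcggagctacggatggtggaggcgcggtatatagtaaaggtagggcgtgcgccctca
Atp1b3: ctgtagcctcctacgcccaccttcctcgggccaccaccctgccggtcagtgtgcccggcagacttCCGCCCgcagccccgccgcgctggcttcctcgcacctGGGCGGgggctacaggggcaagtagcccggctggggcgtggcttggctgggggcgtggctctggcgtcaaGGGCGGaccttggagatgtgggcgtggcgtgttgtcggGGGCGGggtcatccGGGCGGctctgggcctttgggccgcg

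Both printed windows were rich in G and C (70.4% for Atp1b1 and 73.6% for Atp1b3, against a median of 52.4% over 32536 promoter windows of the same length). The Atp1b1 window held 2 GC boxes, the nearer 124 bases before the start, and a CCAAT box on the opposite strand 81 bases before the start. The printed Atp1b3 window held 5 GC boxes and no CCAAT box. The window before its other start, at chr9:96363716-96363965 (76.8% G and C, not printed), held 0 GC boxes and 0 matches to the other motifs searched. A GC box occurred in 33.0% of all windows and a CCAAT box in 33.8%. Neither printed window held TATAAA (12.3% of all windows) or the glucocorticoid receptor half-site TGTTCT (16.0%), and TGACG, the core of the cyclic AMP response element, occurred once, in the printed Atp1b3 window (17.9% of all windows). These are matches of exact letters and show no binding. The Atp1b1 window held tatata near its 3′ end, a spelling that was not searched.

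Atp1b3 was the main beta subunit transcript of the enamel organ. As FPKM, a level scaled to gene length and library size that can be compared between genes, it was 291 to 409 in control and 309 to 494 in ELA mice, rank 67 of the 54532 genes in the table. Atp1b1, the beta subunit found in most epithelia, was 14.1 to 22.5 FPKM in control and 30.7 to 68.2 FPKM in ELA mice, rank 1186. Atp1b2, also known as an adhesion molecule on glia, was 1.53 to 1.92 FPKM in control and 0.803 to 8.80 FPKM in ELA mice, rank 10024. The order Atp1b3, Atp1b1, Atp1b2 held in 9 of 9 mice, and the ranges of neighbouring genes in this order did not overlap within either group.

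**Figure D1:**
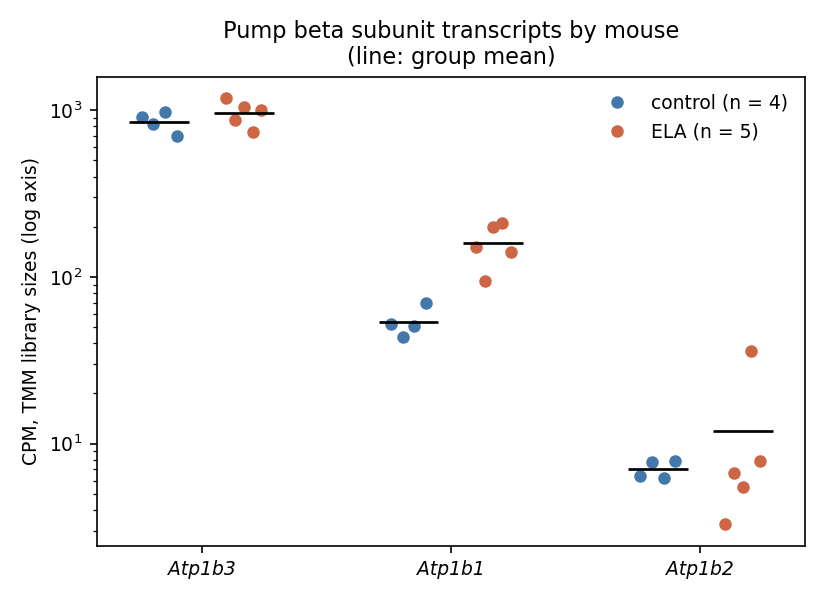
Level of each beta subunit transcript in every mouse, in CPM with TMM library sizes on a log axis, points for single mice (5 ELA, 4 control) and lines for the group means. The groups of Atp1b1 were apart, those of Atp1b3 overlapped, and 1 ELA mouse at 35.9 CPM lay far above the rest for Atp1b2.

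Atp1b1 was 52.3 and 43.4 CPM in the control mice titled c-204-1-1 and c-204-1-2 and 50.5 and 69.5 CPM in c-202-1-1 and c-202-1-2. In the ELA mice it was 152.0 and 94.4 CPM in t-205-1-1 and t-205-1-3, and 198.0, 210.1 and 140.2 CPM in t-203-1-3, t-203-1-4 and t-203-1-5. Every ELA mouse was above every control mouse, and the lowest ELA value was that of t-205-1-3. The ELA mean was 158.9 ± 46.6 CPM (SD, n = 5), the control mean was 53.9 ± 11.1 CPM (SD, n = 4), and the fitted difference was 1.56 on the log2 scale (SE 0.232). Groups without overlap and higher in ELA were found for 1.39% of the genes tested, and 10 genes, 0.0629%, passed an adjusted p of 0.05 in edgeR in either direction. Nothing is read from these shares for Atp1b1, since this contrast was the one it was chosen by.

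Leaving out each mouse in turn gave a log2 difference of 1.44 to 1.71 for Atp1b1, with 1.44 without t-203-1-4, the library with neuron markers. Atp1b1 was 1 of the 10 genes past the threshold in edgeR, but it did not pass in 13 of 21 alternatives, among them leaving out any single mouse other than t-205-1-3. These calls are no test of Atp1b1, since this contrast was the one it was chosen by. By title number the means were 123.2 CPM for t-205 and 182.8 CPM for t-203, against 47.8 CPM for c-204 and 50.5 to 69.5 CPM in the single mice of c-202. Against all control mice, the t-205 mice alone gave a log2 difference of 1.19 and the t-203 mice alone 1.76. All 4 secretory ameloblast markers also had higher fitted values in ELA (1 passed the test). Most of their sum was Ambn. Within the controls the sum was 64506 CPM in c-204-1-2 (lowest Atp1b1) and 50292 CPM in c-202-1-2 (highest). Between these mice Ambn (55922 and 41218 CPM), Enam and Mmp20 were lower in c-202-1-2, and Amelx was higher (8216 and 8773 CPM). In ELA the sum was 71274 CPM in t-205-1-3 (lowest Atp1b1), 129847 CPM in t-203-1-3 and 96008 CPM in t-203-1-4 (highest Atp1b1). Amelx, Ambn and Mmp20 were lower in t-203-1-4 than in t-203-1-3, while Enam was higher (4642 against 4191 CPM). Enam was lowest of the ELA mice in t-205-1-3 (389 CPM). Mesenchyme markers had lower fitted values (7 of 7, 0 past the test), with 12226 to 23750 CPM in ELA mice and 16017 to 31340 CPM in controls. B cell markers were lower in ELA without overlap (5 of 5 with lower fitted values, 1 past the test), with a sum of 4.33 to 12.2 CPM against 23.4 to 44.4 CPM. The part of these cell types in the difference of Atp1b1 was not tested.

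Atp1b3 was 910.6 and 832.0 CPM in the c-204 control mice and 977.0 and 695.8 CPM in the c-202 control mice. In ELA it was 1180.8 and 873.6 CPM in t-205-1-1 and t-205-1-3, and 1041.3, 737.9 and 1000.6 CPM in t-203-1-3, t-203-1-4 and t-203-1-5. The groups overlapped, although the highest 3 mice were all ELA. The ELA mean was 966.8 ± 168.5 CPM (SD, n = 5) and the control mean 853.9 ± 120.9 CPM (SD, n = 4). The log2 difference was 0.18 (SE 0.167) and did not pass the test (edgeR adjusted p = 0.982).

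Atp1b2 was 6.43 and 7.76 CPM in the c-204 control mice and 6.25 and 7.86 CPM in the c-202 control mice. In ELA it was 3.28 and 6.68 CPM in t-205-1-1 and t-205-1-3, and 5.51, 35.9 and 7.85 CPM in t-203-1-3, t-203-1-4 and t-203-1-5. Of the ELA mice, 2 lay within the range of the controls, 2 lay below it, and t-203-1-4 alone lay far above it. The means were 11.9 ± 13.6 CPM (SD, n = 5) and 7.08 ± 0.850 CPM (SD, n = 4), with a log2 difference of 0.75 (SE 0.619, edgeR adjusted p = 0.966). Without t-203-1-4 the difference turned to -0.27 and still did not pass (edgeR adjusted p = 0.999). The lowest adjusted p of Atp1b2 over all alternatives was 0.616, with only the t-203 mice as ELA. The same library held Zic1, a transcription factor of cerebellar granule neurons, at 140.2 CPM, against at most 0.771 CPM in the others, and Tubb3, Snap25 and the other listed neuron markers are included in its sum of 597.5 CPM. The part of this RNA in the value of Atp1b2 was not tested beyond leaving the library out.

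**Figure D2:**
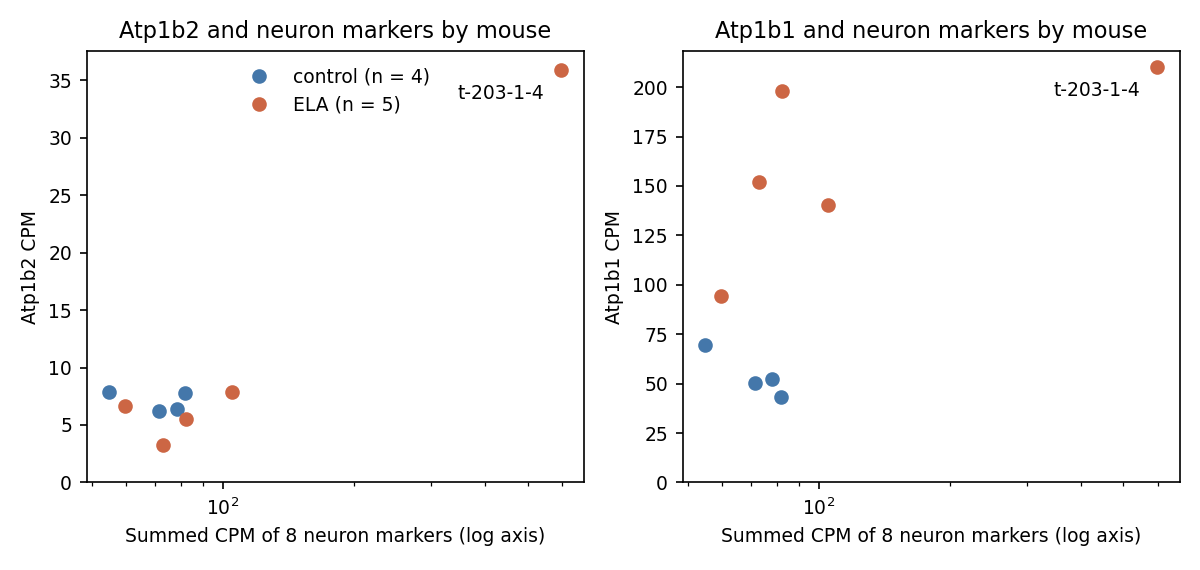
Atp1b2 (left) and Atp1b1 (right) in CPM against the summed CPM of 8 neuron markers on a log axis, with 1 point per mouse. The ELA mouse at 597.5 CPM of neuron markers had the highest value of both, 35.9 CPM for Atp1b2 and 210.1 CPM for Atp1b1.

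Atp1b1 formed a larger part of beta subunit RNA in every ELA mouse than in any control mouse. It made up 4.24%, 3.86%, 3.84% and 7.14% of the summed beta subunit FPKM in the control mice, in the order c-204-1-1, c-204-1-2, c-202-1-1, c-202-1-2. In the ELA mice it made up 9.06% and 7.70% in t-205-1-1 and t-205-1-3, and 12.8%, 17.7% and 9.76% in t-203-1-3, t-203-1-4 and t-203-1-5. The lowest ELA mouse, at 7.70%, was just above the highest control mouse, at 7.14%. The mean share was 11.4 ± 3.97% (SD, n = 5) in ELA and 4.77 ± 1.59% (SD, n = 4) in control mice, a difference of 6.63 percentage points, which was 5.06 without t-203-1-4 and 3.61 with only the t-205 mice as ELA. Since Atp1b1 was chosen for its difference, no test is given for its share.

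The remainder was almost all Atp1b3, at 87.9 ± 4.76% (SD, n = 5) in ELA and 94.8 ± 1.68% (SD, n = 4) in control mice, and Atp1b2 gave 0.704 ± 0.888% and 0.471 ± 0.116%. The ratio of Atp1b3 to Atp1b1 FPKM was 8.49 ± 2.88 in ELA and 21.3 ± 5.68 in control mice (SD, n = 5 and 4). The sum of the 3 beta subunits was 459.2 ± 67.5 FPKM in ELA and 376.6 ± 48.0 FPKM in control mice, and its groups overlapped. Leaving Atp1b1 out, Atp1b3 made up 99.2 ± 1.09% of Atp1b2 plus Atp1b3 in ELA and 99.5 ± 0.129% in control mice. This difference of -0.33 percentage points was within the spread (exact permutation test, 2-sided, p = 0.968, over all assignments of the 9 mice, with a smallest possible p of 0.0159). Without t-203-1-4 it turned to 0.153 (exact permutation p = 0.171, the lowest over the alternatives, which reached 0.984).

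**Figure D3:**
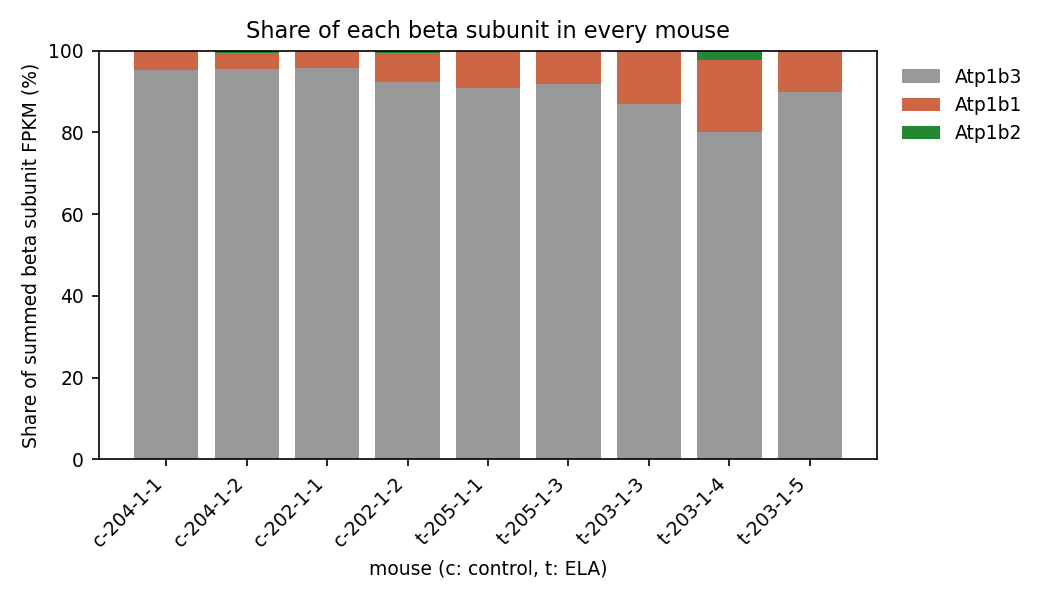
Share of each beta subunit in the summed beta subunit FPKM (%) of every mouse, as stacked bars from 0 to 100. Atp1b3 filled most of every bar, and the Atp1b1 part was 3.84% to 7.14% in control (c) and 7.70% to 17.7% in ELA (t) mice.

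FXYD proteins are the best known small regulators of the pump, and all 7 listed genes entered the fit. Of these, 2 had positive and 5 negative fitted differences, with a median of -0.32 on the log2 scale, beside 0.013 over all genes. None passed the test in edgeR, DESeq2 or limma-voom, and 0 of 7 had an unadjusted edgeR p under 0.05, which 3.56% of all genes had upward and 2.89% downward. Over all genes, 0.0629% passed in edgeR, 0.88% in DESeq2 and 0.0566% in limma-voom.

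Fxyd4, known in kidney and colon, was the most abundant, at 86.3 ± 26.2 FPKM in ELA and 96.0 ± 19.3 FPKM in control mice (SD, n = 5 and 4). In CPM it was 168.9 ± 51.3 against 187.8 ± 37.8, and t-203-1-4 was lowest at 86.8 CPM. The log2 difference of -0.15 (edgeR adjusted p = 0.999) was 0.013 without that mouse. Fxyd3, known from epithelia and their tumours, was 37.5 to 84.2 CPM in ELA mice and 77.5 to 111.0 CPM in controls, a log2 difference of -0.38 (SE 0.225, edgeR adjusted p = 0.879). The adhesion-linked Fxyd5 was 21.2 ± 5.11 CPM in ELA mice and 26.5 ± 5.04 CPM in controls, and Fxyd1 (phospholemman, known in heart and muscle) was 11.2 ± 6.23 and 14.3 ± 3.31 CPM. Fxyd6 had a positive difference (log2 difference 0.41), at 25.8 ± 16.7 and 19.4 ± 6.44 CPM, and was highest in t-203-1-4 (46.1 CPM) and t-203-1-5 (41.3 CPM). Fxyd2, the gamma subunit of the kidney pump, and Fxyd7, known in brain, had mean levels below 1 CPM in both groups. The groups overlapped for every FXYD gene.

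**Figure D4:**
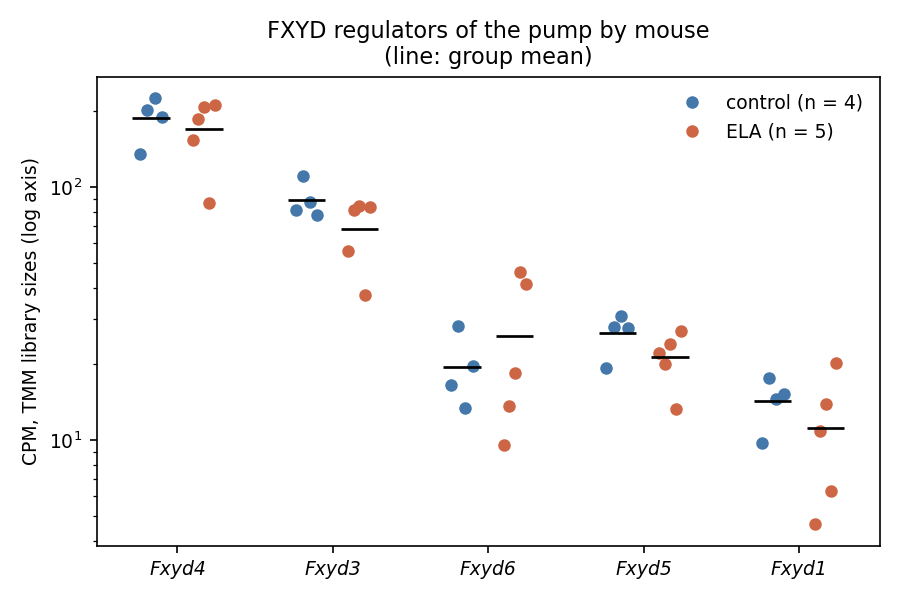
Level of the 5 FXYD genes with a mean of at least 1 CPM in every mouse, in CPM on a log axis, with points for single mice and lines for the group means. ELA and control mice overlapped for all 5.

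Other beta or catalytic subunits of related ion pumps were scarcely measured. Atp1b4, a muscle gene related to the beta subunits, and Atp4a, Atp4b and Atp12a, which form proton-potassium pumps, had too few counts to be tested (0 of 4), and none exceeded 0.602 CPM in any mouse.

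Among 12 genes that bind the pump or act on it and its partners, 10 were tested and 0 passed, with 0 at an unadjusted p under 0.05 in edgeR and 0 called by DESeq2 or limma-voom. Their median log2 difference was 0.05, with 7 positive and 3 negative, or 4 positive and 6 negative when scaled to plain library totals. Wnk4, a kinase that controls sodium and chloride transporters, was 28.2 ± 5.32 CPM in ELA mice and 22.2 ± 6.32 CPM in controls (log2 difference 0.34). Nedd4l, a ubiquitin ligase that removes the epithelial sodium channel from the membrane, was 26.5 ± 6.64 and 22.0 ± 3.87 CPM (0.27). Nkain1 and Nkain2, membrane proteins that interact with the beta subunit, had log2 differences of 0.42 and -0.55. Nkain1 was 18.5 CPM in t-203-1-4 and at most 8.98 CPM elsewhere, and without that mouse its difference was -0.10. Nkain2 was near the limit of measurement, with means of 0.731 and 1.10 CPM.

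All 23 listed carriers and channels that use the sodium gradient were tested, and 0 passed in edgeR or limma-voom. Of the 23, 16 had positive and 7 negative differences (median 0.11), or 13 and 10 when scaled to plain library totals, beside 52.6% positive over all genes. An unadjusted edgeR p under 0.05 upward was found for 2 of the 23, beside 3.56% of all genes. Scnn1b, the beta subunit of the epithelial sodium channel, was 15.2 and 14.3 CPM in the c-204 and 16.2 and 19.8 CPM in the c-202 control mice. In ELA it was 23.3 and 23.9 CPM in the t-205 mice and 34.6, 35.4 and 23.4 CPM in t-203-1-3, t-203-1-4 and t-203-1-5. The groups did not overlap, which held upward for 1.39% of all genes, and the log2 difference was 0.78 (SE 0.179). It missed the threshold in edgeR (adjusted p = 0.205) and in limma-voom (adjusted p = 0.238), and passed in DESeq2 (adjusted p = 0.0155, the lowest over the alternatives run, which reached 1.00 for the c-202 controls alone). Slc20a1, a sodium-phosphate carrier, was 101.7 ± 20.8 CPM in ELA mice and 76.0 ± 13.9 CPM in controls (log2 difference 0.42, edgeR adjusted p = 0.714). Slc24a3, a potassium-dependent sodium-calcium exchanger, had a log2 difference of 0.40 (edgeR adjusted p = 0.798). Slc8a2, a sodium-calcium exchanger of brain, reached 15.2 CPM in t-203-1-4 while no other mouse exceeded 3.18 CPM, and its log2 difference of 1.96 was 0.37 without that mouse.

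Of 13 potassium channel genes, 9 were tested and 0 passed in edgeR, DESeq2 or limma-voom, with 2 at an unadjusted edgeR p under 0.05, both upward, beside 3.56% of all genes. Their median log2 difference was 0.03, with 5 positive and 4 negative, or 4 and 5 when scaled to plain library totals. Kcnj2, an inward rectifier, was 13.3, 14.5, 13.6 and 14.4 CPM in the control mice, in the order of titles above. It was 17.4 and 18.9 CPM in the t-205 and 25.9, 33.8 and 18.8 CPM in the t-203 mice, without overlap between the groups, as for 1.39% of all genes (log2 difference 0.72, SE 0.199, edgeR adjusted p = 0.375). Kcne3, an accessory subunit of potassium channels, had a log2 difference of 0.72 (edgeR adjusted p = 0.684), and Kcnk5, a two-pore channel, 0.67 (edgeR adjusted p = 0.812). The abundant two-pore channel Kcnk1 was 252.6 ± 40.0 CPM in ELA mice and 285.3 ± 15.1 CPM in controls (log2 difference -0.18, edgeR adjusted p = 0.960). Across the 4 tested lists, 0 of 49 genes passed in edgeR, 1 in DESeq2 and 0 in limma-voom.

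**Figure D5:**
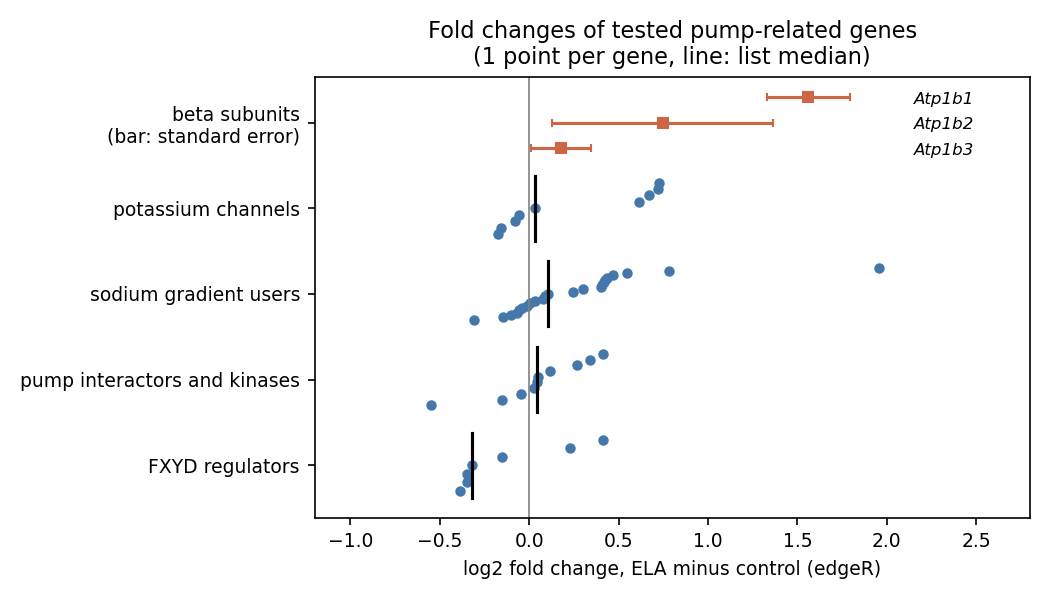
Log2 fold change (ELA minus control, edgeR) of the tested genes of each pump-related list, with 1 point per gene and a line at the list median, and the beta subunits with bars for the standard error. The list medians lay between -0.32 and 0.11, and the highest single gene was Slc8a2 at 1.96. Atp1b1, which was chosen for its rise, was at 1.56.

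The pattern of Atp1b1 over the 9 mice was most like that of 6 genes among 9781 with a mean of at least 10 CPM (Pearson r of log2 CPM, given as a description since the mice share 2 conditions). These were Dopey2 (r = 0.985), Zfp672, Adgrb1 and Fbxo44 (0.967 each), the enamel matrix gene Amelx (0.965) and Pi15 (0.965). Dopey2 was 72.7 to 134 CPM in ELA mice and 48.3 to 64.8 CPM in controls. Amelx was 15193 to 34886 CPM in ELA mice and 8216 to 9451 CPM in controls. After the mean of each condition was subtracted, the nearest were Mtif2 (0.972), Dopey2 (0.951), Srek1 (0.943), Plekha5 (0.934), Phka1 (0.917) and Herc3 (0.916), so Dopey2 was the 1 gene in both sets and Amelx was not among the 6.

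The nearest genes to Atp1b3 were Fh1, a mitochondrial enzyme of the citric acid cycle (0.940), Acer2 (0.939) and Rerg (0.932) over all mice, and Fh1 (0.951), Zrsr1 (0.943) and Acer2 (0.937) after subtraction of condition means. Those nearest to Atp1b2 were Sept3 (0.983), Cadm3 (0.976) and Zic1 (0.970), and the same 3 genes came first after subtraction. All 3 had their highest value in 1 ELA mouse, with Sept3 at 105.3 CPM there and at most 2.41 CPM in control mice. Zic1 was 140.2 CPM in t-203-1-4, the mouse highest in Atp1b2, and at most 0.771 CPM in any other. Subtraction of condition means leaves such a library apart, so the second ranking of Atp1b2 is no separate evidence.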

How the data were processed

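Poly(A)-captured RNA of 9 enamel organs was sequenced for the authors by a company. The authors deposited whole-number counts per Ensembl gene, and the submitters' processing notes name CASAVA, HISAT and HISAT2. Genome build, counting program and strand setting were not given in the sources used here. Of 54532 gene identifiers, 54495 were found in GENCODE M21, 98.2% at identical coordinates, and GRCm38 was therefore taken as the build. Groups came from the treatment labels, 0 columns were left unassigned, and the deposited table's gene lengths were used for FPKM.

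ELA and control mice were compared with edgeR 4.0.16 in R 4.3.3 (filterByExpr with a count minimum of 10, TMM, glmQLFit with robust estimation, glmQLFTest). Adjusted p-values are Benjamini-Hochberg over all 15909 genes tested, with a threshold of 0.05. DESeq2 1.42.0 and limma-voom (limma 3.58.1) were alternatives, as were other scalings, no count filter, leaving out each mouse, and title numbers alone or summed. CPM and FPKM used TMM library sizes, and log2 CPM a prior count of 2. The Atp1b3 share of Atp1b2 plus Atp1b3 was tested with exact permutation in scipy 1.17.1, and the other shares were not tested. The scripts were tested on simulated data. Libraries of a group differed by far more than counting noise (over 16 pairs, chi-square divided by its degrees of freedom was 19.5 to 121.7), and p-values measure the spread between mice, whose independence within a title number the labels do not give.

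The members, lists and tests were chosen with earlier results of these data known. Named were all members, FXYD genes with a mean of at least 1 CPM, the 4 genes with the smallest edgeR p of each other list, and the genes nearest in pattern (6 for Atp1b1, 3 each for the others). Nme7, Fxyd2, Fxyd7 and the related pump subunits were named after their values were seen. The catalytic subunits are not reported here. Markers of 13 cell types were summed. Those not described in the results were, as ranges of summed CPM in ELA and control mice, dental epithelium 7863 to 13438 and 9683 to 15311, osteoblast 414 to 1215 and 721 to 1579, osteoclast 184 to 667 and 396 to 680, skeletal muscle 4.98 to 57.4 and 4.08 to 43.2 (Tnnc2 at 0 throughout), erythroid 160 to 378 and 364 to 862, endothelium 352 to 391 and 323 to 428, and leukocyte 109 to 156 and 130 to 175.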

Additional observations from a re-analysis of the deposited data

Results flagged for a closer look

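Values of single mice that lay far from the rest of their group were searched for in 48 groups of 4 or 5 mice, of which chance flags about 1 in 20, and 8 were found. The ELA mouse titled t-203-1-4 gave 4 of them. Its Atp1b2 was 35.9 CPM, against 7.85 CPM in the next ELA mouse. Atp1b2 made up 2.28% of its beta subunit FPKM (next 0.412%), and Atp1b3 97.2% of its Atp1b2 plus Atp1b3 (next 99.5%). Both shares were computed with the same Atp1b2 value and are not independent of it. Its Slc8a2 was 15.2 CPM (next 3.18 CPM). The same library held the highest neuron and glia marker sums.

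The control mouse titled c-202-1-2 gave 3. Atp1b1 made up 7.14% of its beta subunit FPKM, against 4.24% in the next control mouse, and Atp1b3 made up 92.2% (next 95.4%). These are not independent, since the shares sum to 100%. Its Kcne3 was 5.85 CPM (next 3.81 CPM). The ELA mouse titled t-203-1-5 held Nkain2 at 1.85 CPM, against 0.602 CPM in the next ELA mouse.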

How the results depend on the processing

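For the members, shares and list counts, 121 alternative values kept their direction and, where a test was given, their side of the threshold, 4 turned and 1 moved. Atp1b1 kept its direction throughout. Its call in the fit across all genes is no test of a gene chosen by this contrast. That call held in 8 of 21 alternatives and in 1 of the 9 that left out a mouse (t-205-1-3). Leaving out each mouse gave Atp1b2 a log2 difference of -0.27 to 0.99, and the t-205 mice alone gave -0.51. The difference in the Atp1b3 share of Atp1b2 plus Atp1b3 was -0.50 to 0.153 percentage points over the mice left out and 0.192 with the t-205 mice alone. DESeq2 called 1 list gene, Scnn1b (log2 difference 0.78). Of 357 values for 17 named genes, 352 kept direction and side, and 4 turned: Fxyd4 (-0.28 to 0.013 over the mice left out), Nkain1 (-0.10 to 0.59), and with the t-205 mice alone Fxyd6 (-0.74) and Slc8a2 (-0.63). Fxyd4, Nkain1, Atp1b2 and the Atp1b3 share turned without t-203-1-4. The causes were not tested.

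The number of genes called depended on the setting. edgeR called 6 higher and 4 lower, DESeq2 79 and 61, edgeR with plain library totals 2 and 2, and edgeR with no count filter 22 and 16. Without the ELA mouse t-205-1-3 it called 16 and 9, and without any other single mouse 0 or 1 in each direction. Against all controls it called 44 and 15 with the t-203 mice and 4 and 0 with the t-205 mice, and 3 and 0 with counts summed by title number. With only the c-202 controls it called 0 and 0 (230 and 211 at an unadjusted p under 0.05), and with only the c-204 controls 0 and 1. No paired analysis was possible because the titles share no numbers between the groups. Related pump subunits had too few counts to be tested, and Fxyd2 and Fxyd7 had mean levels below 1 CPM.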
